A study of Homo sapiens with 6 samples.

Results

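The S100 genes encode small EF-hand proteins that bind calcium. The 10 genes described here are S100A2, S100A3, S100A4, S100A6, S100A10, S100A11, S100A13, S100A14, S100A16 and S100P, taken by symbol from the 25662 gene symbols of the deposited expression table. They were selected on measured values, the TPM levels in these same libraries being known when the genes were picked, so their levels and differences between groups are given as a description, without p-values. RNA was sequenced from HCT116, a human line of colorectal carcinoma cells. One group of 3 libraries came from cells that received 1 µM BMH-21 for 24 h, and the other group of 3 libraries came from control cells. BMH-21 is a small DNA intercalator that inhibits RNA polymerase I. The treatment protocol gives DMSO for controls while their titles say 0 h, so a difference in time in culture and the drug cannot be told apart. All 6 libraries are from a single cell line, and the design text describes the replicates as biological.

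Most S100 proteins work as dimers. When calcium binds to their EF-hands, each subunit exposes a hydrophobic surface that grips a target protein, such as an annexin, a myosin or a receptor. S100A10 is an exception, since its EF-hands no longer bind calcium and it stays in the active shape. In human epithelia the family is known for roles in membrane and cytoskeleton dynamics, and S100A4 in particular for its link to the spread of carcinomas. Most of the genes lie side by side on chromosome 1, next to genes of the epidermal barrier.

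Values are TPM, a transcript's share of its library corrected for transcript length and scaled to a fixed total, so levels can be compared between genes. No file gives the sequencing depth. A level of 1 TPM was reached by 11509 to 12001 genes in each library. BMH-21 replicate 3 and control replicate 1 were unlike the rest of their groups. Averaged over 12041 genes, the squared log2 deviation from the group mean was 0.0696 and 0.0586 for this pair, and 0.0274 to 0.0331 for the other 4 libraries. Mitochondrially encoded transcripts took 26.1% and 25.8% of TPM in these libraries and 20.3% to 21.6% in the others. Of 8 markers of colon epithelium, 6 reached the level filter described below. The markers VIL1 and LGALS4 were nearly absent, at 0.205 TPM or less after BMH-21 and 0.391 TPM or less in controls. No immune or endothelial marker passed the filter. Of the fibroblast markers COL1A1 passed, and COL1A2, DCN and LUM were listed at 0 in all 6 libraries.

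After BMH-21, transcripts of the 9 chromosome 1 genes were higher in every treated library than in any control library. The ratio of mean TPM was at least 2 for 6 of the 10 genes and was largest for S100A6. S100P was near 0 in both groups. Genes with at least 1 TPM in at least 3 of the 6 libraries entered a limma fit on log2(TPM + 1), and 9 of the 10 S100 genes did. All 9 were called higher (Benjamini-Hochberg adjusted p under 0.05), beside 36.4% of all 12041 genes called in either direction, 19.4% called higher and 16.9% called lower. For all 9 the BMH-21 libraries lay entirely above the control libraries, beside 29.6% of all genes. Nothing is read from these shares, because the genes were picked with the values known. The median log2 fold change of the 9 genes was 1.03, and that of all genes was 0.06. In bulk RNA, more cells that express a gene and more RNA per cell cannot be told apart. TPM is a share of the library, so a fall in other transcripts cannot be told apart from these either.

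**Figure D1:**
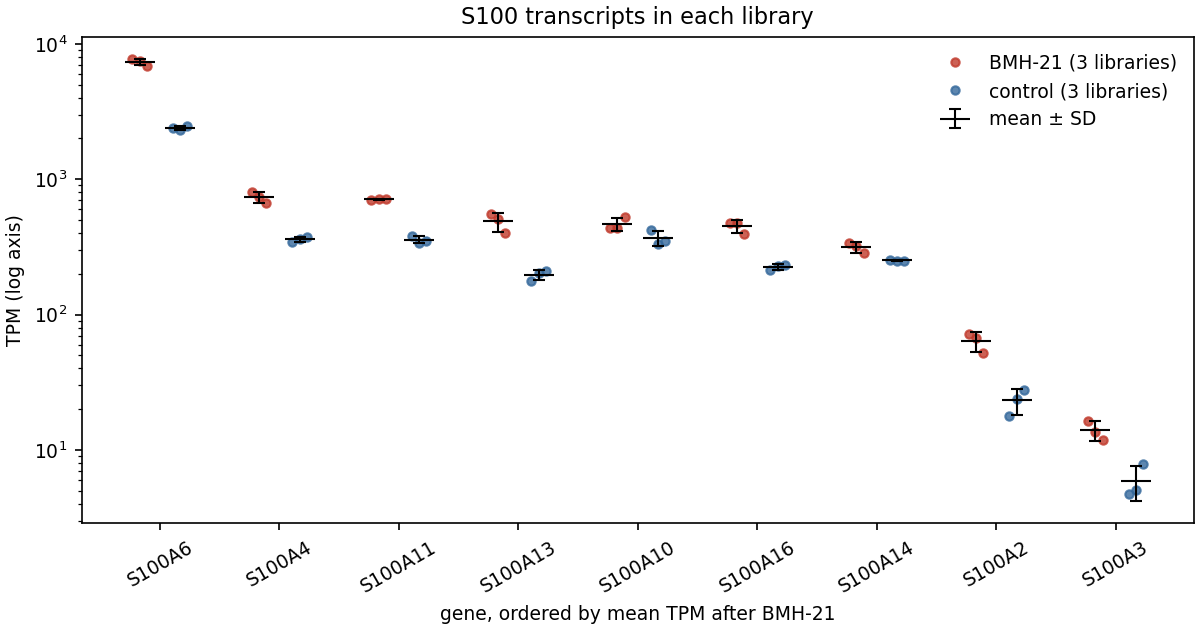
Levels of 9 S100 genes in TPM on a log axis, with BMH-21 libraries left of control libraries for each gene. Points are libraries and bars are the mean ± SD of 3, and S100P is left out because it was at 0.454 TPM or less. The groups are separated for every gene, widely for S100A6 and narrowly for S100A10.

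S100A6, also called calcyclin, was the most abundant S100 transcript and had the largest difference. It had 7668, 7455 and 6890 TPM in the BMH-21 libraries, against 2389, 2328 and 2464 TPM in the control libraries. The lowest BMH-21 library was 180% above the highest control library, so the groups were far apart. The means were 7338 ± 402 TPM after BMH-21 and 2394 ± 68.2 TPM in controls (SD, n = 3 each), a ratio of 3.07 and a log2 fold change of 1.61 (SE 0.10). By mean level it ranked 13 of all 25662 symbols after BMH-21 and 71 in controls.

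S100A4 binds the heavy chain of non-muscle myosin and loosens its filaments. It had 802, 741 and 664 TPM after BMH-21, against 346, 359 and 373 TPM in controls. Its mean ratio was 2.05, with a log2 fold change of 1.03 (SE 0.09).

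S100A2 is a largely nuclear member whose protein binds p53, and its gene is known as a p53 target in other human cells. Its level was far below that of S100A4 in both groups. It had 72.0, 67.5 and 51.8 TPM after BMH-21, against 17.9, 23.9 and 27.9 TPM in controls. The ratio of means was 2.74, with a log2 fold change of 1.43 (SE 0.18). S100A3, a cysteine-rich protein known from the hair cuticle, was the lowest of the 9. It had 16.5, 13.6 and 11.9 TPM after BMH-21, against 4.75, 5.06 and 7.82 TPM in controls. This is a ratio of 2.38 and a log2 fold change of 1.14 (SE 0.20), and the groups did not overlap.

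S100A13 takes part in the release of FGF1 from cells by a route outside the classical secretory pathway. It had 552, 510 and 401 TPM after BMH-21, against 178, 203 and 210 TPM in controls. The ratio of means was 2.47, with a log2 fold change of 1.29 (SE 0.12). S100A16, a broadly expressed member, had 474, 479 and 396 TPM after BMH-21, against 213, 229 and 233 TPM in controls. Its log2 fold change was 0.99 (SE 0.09). S100A14, which is abundant in epithelia, showed a much smaller difference. It had 340, 322 and 284 TPM after BMH-21, against 255, 248 and 251 TPM in controls. Its ratio of means was 1.25 and its log2 fold change 0.32 (SE 0.08). The closest libraries of the groups were 11.5% apart.

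S100A10 and S100A11 are known for their complexes with annexins. S100A11, which pairs with annexin A1, had 699, 713 and 714 TPM after BMH-21, against 381, 341 and 351 TPM in controls. Its ratio of means was 1.98, with a log2 fold change of 0.99 (SE 0.07), and the treated libraries were nearly equal. S100A10, which forms a complex with annexin A2 at the plasma membrane, had 436, 434 and 524 TPM after BMH-21, against 424, 334 and 351 TPM in controls. BMH-21 replicate 3 was the high library of its group and control replicate 1 of its own, and the groups were only 2.35% apart at their nearest values. The log2 fold change of S100A10 was 0.33 (SE 0.11). S100P, the one gene here that lies on chromosome 4, had 0, 0.280 and 0.269 TPM after BMH-21, against 0.220, 0.454 and 0.378 TPM in controls. It did not pass the level filter and no fold change is given.

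The direction held for all 9 genes in each of 17 alternative settings, and 7 of them were called in every one. The direction was largely fixed in advance. Every BMH-21 library lay above every control library for these genes, so leaving libraries out could not reverse it. The level filter and the variance trend do not alter a fold change. The call of S100A10 was lost in the majority, since it was made in 6 of the 17. It was lost without BMH-21 replicate 1, 2 or 3, at log2 fold changes of 0.37, 0.38 and 0.24, and without control replicate 2 or 3, at 0.26 and 0.30. With all 6 libraries it was lost under trimmed mean and under median of ratios scaling, at 0.27 in each. The same held with a pseudocount of 0.1, no filter on low values, mitochondrial genes left out, or no intensity trend. S100A14 was called in 10 of the 17. It was lost without BMH-21 replicate 1 or 2, at 0.27 and 0.31, and without control replicate 2 or 3, at 0.31 and 0.32. With all 6 libraries it was lost under both of these scalings, at 0.26 in each, and with no intensity trend. Without BMH-21 replicate 3 and control replicate 1, a setting added once these libraries had been seen to stand apart, all 9 were called and their median was 1.07. These libraries deviated most within their groups, and the number called over all genes also rose without them, as given in the last section. The 9 calls in that setting therefore add no support.

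Summed over the 10 genes, S100 transcripts took 1.11%, 1.07% and 0.994% of the TPM scale after BMH-21, against 0.421%, 0.407% and 0.427% in controls. The means were 10577 ± 577 TPM after BMH-21 and 4183 ± 101 TPM in controls (SD, n = 3 each), a ratio of 2.53. S100A6 made up 69.3% to 69.4% of this sum in the BMH-21 libraries and 56.8% to 57.7% in the control libraries. Without S100A6 the sum was 3240 ± 176 TPM after BMH-21 and 1789 ± 39.9 TPM in controls, a ratio of 1.81. The summed markers of colon epithelium, which include the keratins KRT8, KRT18 and KRT19, were also higher, at 11423 to 13010 TPM after BMH-21 and 5143 to 5377 TPM in controls. Of the 6 that passed the level filter, 5 were called higher, beside 19.4% of all genes called higher. KRT19 and KRT8 had log2 fold changes of 1.72 and 1.23, while CDH1 did not pass. The part of these markers in the S100 result was not tested. Markers of other cells were low in both groups. Immune markers summed to 0.424 to 1.20 TPM after BMH-21 and 0.426 to 0.863 TPM in controls. Endothelial markers summed to 0.205 to 0.222 TPM after BMH-21 and 0.157 to 0.186 TPM in controls, and fibroblast markers to 1.88 to 3.73 TPM after BMH-21 and 3.77 to 4.89 TPM in controls. COL1A1, the one fibroblast marker tested, was called lower, at -0.61. That call was lost without BMH-21 replicate 1 or 2, at -0.50 and -0.53, and without control replicate 1, 2 or 3, at -0.65, -0.51 and -0.66.

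**Figure D2:**
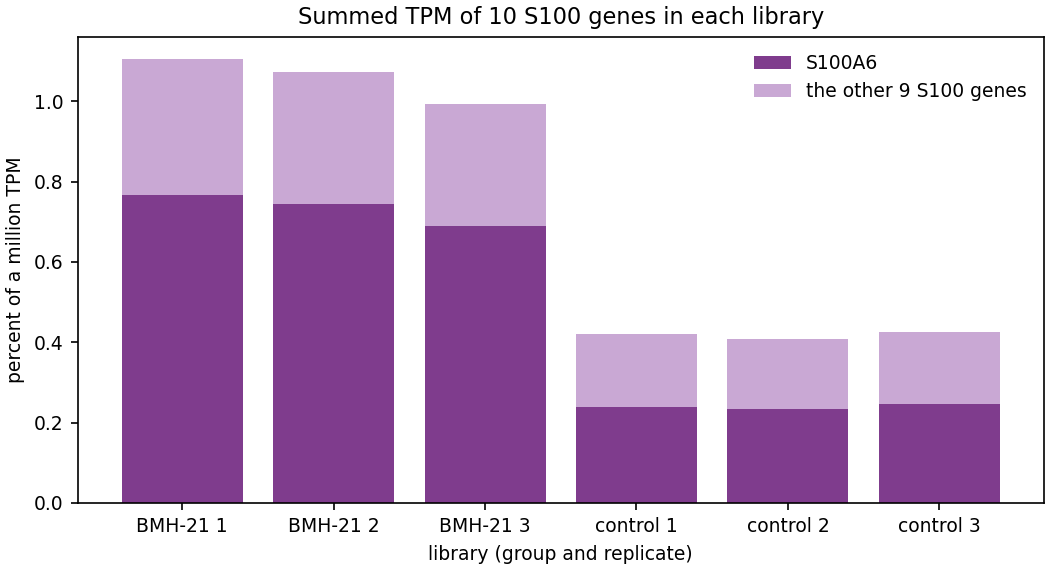
Summed TPM of the 10 S100 genes as a percent of the TPM scale in each library, BMH-21 libraries first, with S100A6 as the lower part of each bar. Bars of the BMH-21 libraries reach 0.994% to 1.11%, and those of the control libraries 0.407% to 0.427%.

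In both groups S100A6 had the highest level and S100A2, S100A3 and S100P the lowest, while the order of the genes in the middle differed. After BMH-21, S100A6 was followed by S100A4 and S100A11, whose ranges overlapped, and then by S100A13, S100A10 and S100A16, each overlapping the next. S100A14, S100A2, S100A3 and S100P came last, without overlap of neighbours. In controls, S100A6 was followed by S100A10, S100A4 and S100A11, again with overlapping neighbours, and then by S100A14, S100A16, S100A13, S100A2, S100A3 and S100P without overlap. S100A13 was thus above S100A14 in all BMH-21 libraries and below it in all control libraries.

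Within groups, the order of the libraries differed between genes. BMH-21 replicate 1 was the highest library of its group for 6 of the 9 genes and the lowest for 1. BMH-21 replicate 3 was the lowest library of its group for 7 of the 9 genes, and the highest for the other two, S100A10 and S100A11. Control replicate 1 was the lowest of its group for 5 genes, and the highest for S100A10, S100A11 and S100A14. Control replicate 3 was the highest for 6 genes. For S100A10, BMH-21 replicate 3 and control replicate 1 lay 0.18 and 0.21 above their group means on the log2 scale. For S100A2 this pair lay at -0.28 and -0.34, and for S100A13 at -0.27 and -0.14. This is the pair that stood apart over all genes. Their part in these deviations was not tested. The coefficient of variation ran from 1.20% for S100A11 to 16.7% for S100A2 after BMH-21, and from 1.29% for S100A14 to 28.7% for S100A3 in controls.

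**Figure D3:**
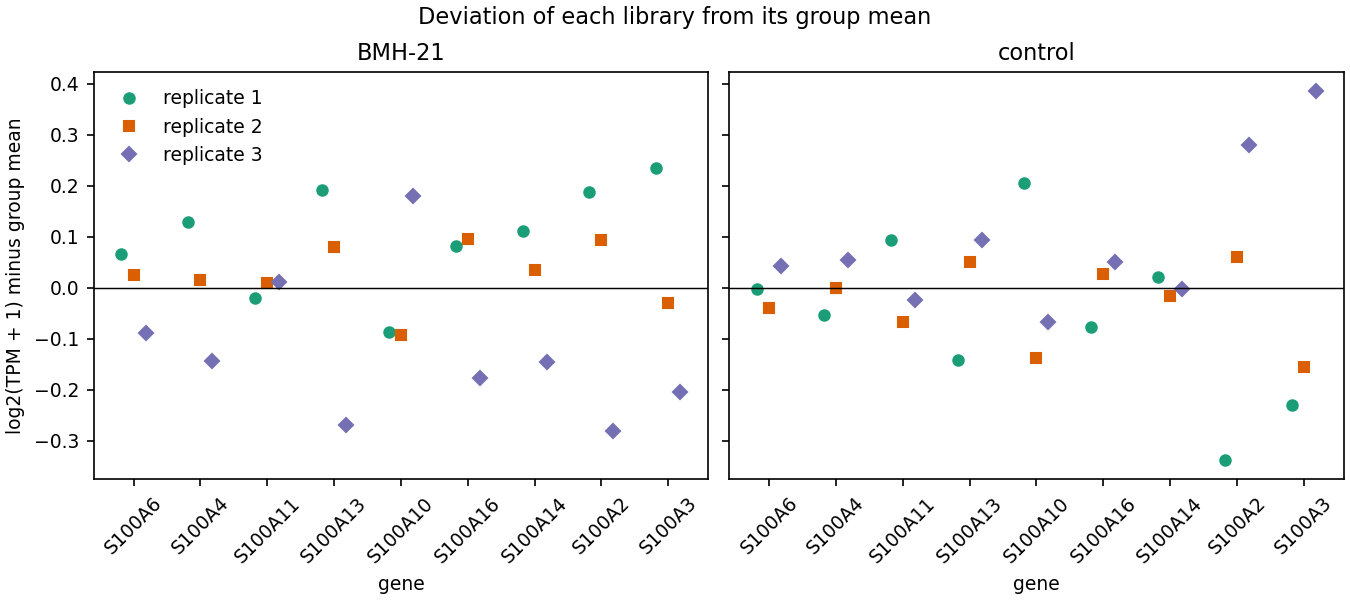
Deviation of each library from its group mean on the log2(TPM + 1) scale for 9 S100 genes, BMH-21 libraries in the left panel and control libraries in the right. BMH-21 replicate 3 is below its group mean for 7 genes and at 0.18 for S100A10, and control replicate 1 is at 0.21 for S100A10 and -0.34 for S100A2.

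The gene whose profile over the 6 libraries was nearest to that of S100A6 was H2BC12, which encodes a histone H2B and has near-identical copies. KRT19, a keratin of simple epithelia, was also among the nearest. Likeness was the root mean square difference of centred log2(TPM + 1) values over the 6 libraries, among 8301 genes with a mean of at least 5 TPM. It was 0.0544 for H2BC12 and 0.0683 for KRT19. Their log2 fold changes were 1.69 and 1.72.

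Positions were taken from GENCODE 29 on GRCh38. S100A10 (chromosome 1, 151982915 to 151994390) and S100A11 (152032506 to 152047907) lie apart from the other chromosome 1 genes. The main block runs from S100A6 (153534599 to 153536244) through S100A5, S100A4 (153543613 to 153550136), S100A3 (153547329 to 153549372), S100A2 (153561108 to 153567890), S100A16 (153606886 to 153613145) and S100A14 (153614255 to 153616986) to S100A13 (153618787 to 153631360). The 9 genes are on the minus strand. S100A3 lies within the span of S100A4, and their annotated exons share no base. Counted from the start of S100A6, the starts of the block reach 95.1 kb, at S100A13. By these positions the next gene that passed the level filter, CHTOP, starts at 97.7 kb. A RefSeq window around another S100A13 start (153634312 to 153634611) lies past that point, within the span of CHTOP.

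The 9 S100 genes of the block that passed the level filter, with S100A5 and S100A1 among them, had log2 fold changes of 0.32 to 1.61. The nearest genes beyond it on the S100A13 side had 0.17 and -0.01. On the S100A6 side no gene passed the filter before S100A11, at -1488 kb, so that edge cannot be compared. The neighbours were taken by position, as genes of the table within 500 kb of the outermost chromosome 1 S100 gene. Of 58 such genes, 20 passed the level filter, of which 3 were called higher, 4 lower and 13 did not pass the test. Their median log2 fold change was -0.01, beside 0.06 for all genes, and 35% were called, beside 36.4% of all genes. CHTOP, an RNA export factor, and SNAPIN, a vesicle protein, are the nearest genes beyond S100A13 and are named for that position. They averaged 101 ± 6.24 and 47.9 ± 1.49 TPM after BMH-21, against 90.4 ± 9.66 and 48.2 ± 2.04 TPM in controls (SD, n = 3 each), with log2 fold changes of 0.17 and -0.01 that did not pass. ILF2, a double-stranded RNA binding factor that starts at 135 kb, fell to 219 ± 5.29 TPM after BMH-21, against 384 ± 23.1 TPM in controls. Its log2 fold change was -0.80 (SE 0.07, limma adjusted p = 6.1e-05). CREB3L4, a transcription factor of the endoplasmic reticulum membrane, fell to 2.87 ± 0.230 TPM after BMH-21, against 12.3 ± 0.156 TPM in controls, a log2 fold change of -1.78. SLC27A3, an acyl-CoA synthetase, also fell, at -0.90, and TUFT1, on the far side of S100A10, rose at 0.82. Testing with no filter on low values took in 45 neighbours, of which 5 were called higher and 5 lower. With BMH-21 replicate 3 and control replicate 1 left out, 4 neighbours were higher and 9 lower, in a setting where calls over all genes also rose. With any 1 library left out the number called was 4 to 7. It was 4, of which 1 was higher, without BMH-21 replicate 1 or 2 or any of the 3 control replicates.

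**Figure D4:**
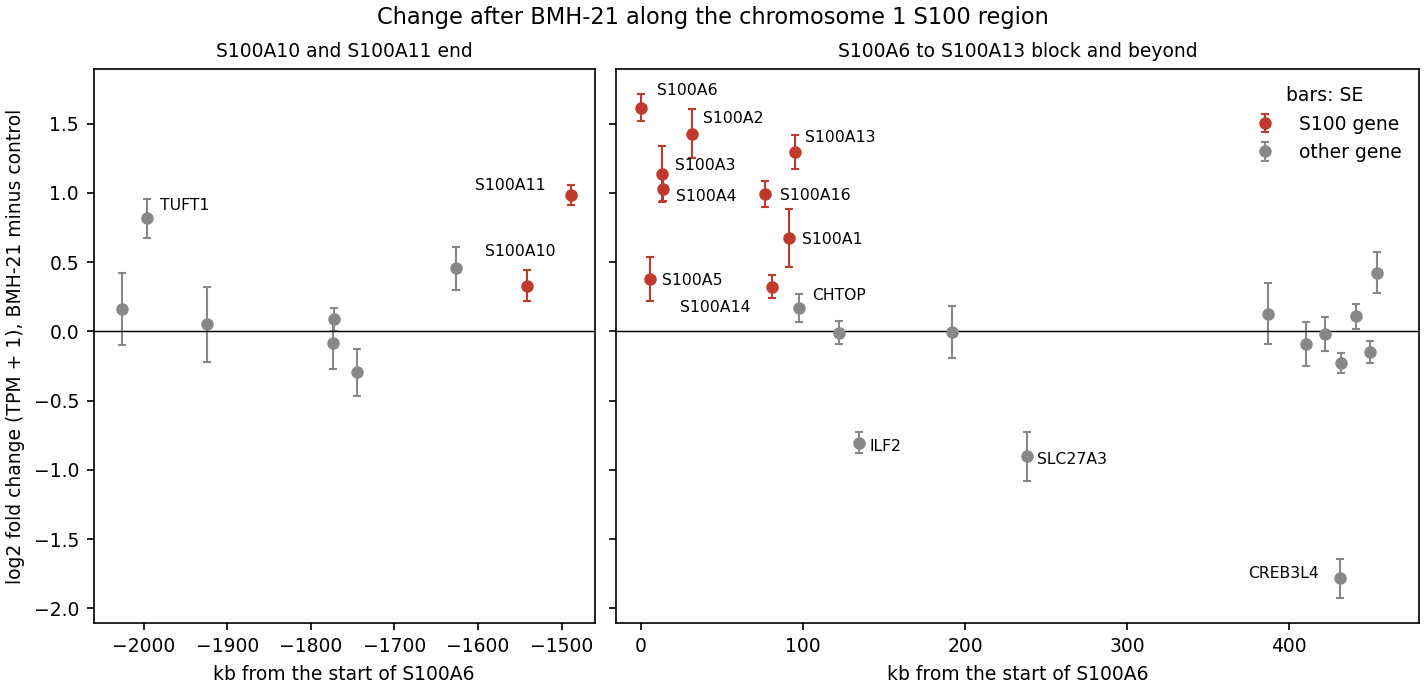
Log2 fold change of log2(TPM + 1), BMH-21 minus control, for genes that passed the level filter, by distance of their start from that of S100A6 in kb; bars are SE. S100 genes lie between 0.32 and 1.61, and the other genes between -1.78 and 0.82, with CHTOP at 0.17 just beyond the block.

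Start regions were read from RefSeq windows (GRCh38.p14) of 250 bases before to 50 bases after each annotated start. All 10 genes matched, with 14 windows, since some genes have several starts. The 120 bases before the start are shown for 5 genes of the block, S100A6, S100A4, S100A13 and S100A2 as genes with large differences and S100A14 as the one with the smallest. S100A13 and S100A2 have several starts, and the window shown for each was picked because it holds a TATAAN or an AP-1 match. All are on the minus strand and read 5′ to 3′ towards the start. Capitals mark, on either strand, the TATA-type motif TATAAN, the GC box GGGCGG, the AP-1 site TGANTCA and the motif CCAAT. The S100A6 stretch is chr1:153535992-153536111, the S100A4 stretch chr1:153545807-153545926, the S100A13 stretch chr1:153627506-153627625, the S100A2 stretch chr1:153565845-153565964 and the S100A14 stretch chr1:153616326-153616445.
S100A6: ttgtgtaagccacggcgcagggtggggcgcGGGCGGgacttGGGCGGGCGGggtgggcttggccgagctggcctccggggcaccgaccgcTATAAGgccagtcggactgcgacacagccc
S100A4: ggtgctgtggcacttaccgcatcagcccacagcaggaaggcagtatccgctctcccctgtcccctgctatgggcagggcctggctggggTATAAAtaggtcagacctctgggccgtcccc
S100A13: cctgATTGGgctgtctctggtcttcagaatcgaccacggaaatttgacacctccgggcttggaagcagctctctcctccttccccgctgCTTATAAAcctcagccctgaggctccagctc
S100A2: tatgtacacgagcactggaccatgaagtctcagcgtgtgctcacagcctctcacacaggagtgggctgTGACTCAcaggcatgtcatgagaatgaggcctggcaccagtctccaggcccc
S100A14: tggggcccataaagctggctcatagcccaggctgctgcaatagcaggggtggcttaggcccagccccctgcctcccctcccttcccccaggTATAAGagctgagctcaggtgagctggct

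The S100A6, S100A4, S100A13 and S100A14 stretches each hold a TATAAN match about 30 bases before the start, and the S100A2 stretch holds an AP-1 match instead. For S100A13 and S100A2 the match was fixed by the choice of window. Their other windows hold neither a TATAAN nor an AP-1 match. TATAAN was in 5 of the 14 windows, 1 of them that of S100P, in 20.4% of 35116 windows of all genes and in 11.1% of the windows of genes that passed the level filter. Its last base was allowed to be any base after TATAAG had been seen in S100A6, so this count is a description. The GC box GGGCGG was in 6 of the 14 windows, among them that of S100A6 with 3 matches, a pair of which overlap. It was in 44.95% of all windows and in 68.2% of those of genes that passed the filter. AP-1 matches were in 2 of the 14, those of S100A2 and S100A3, in 7.71% of all windows and in 5.06% of those of genes that passed. CCAAT was in 3 of the 14, in 34.6% of all windows and in 34.7% of those of genes that passed. The p53 half-site, searched on both strands, was in 1 of the 14, that of S100A16, in 6.63% of all windows and in 5.58% of those of genes that passed. S100A14, with a small difference, and S100A6, with the largest, both carry TATAAG before the start.

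Of 11 other S100 genes, 5 were in the table and 2 of those passed the level filter, both in the same chromosome 1 block. S100A1, a calcium sensor best known in muscle, rose to 1.55, 2.02 and 2.84 TPM after BMH-21, against 1.42, 0.882 and 0.599 TPM in controls (log2 fold change 0.68, SE 0.21, limma adjusted p = 0.035). At this low level the size depends on the pseudocount, and with 0.1 in place of 1 the log2 fold change was 1.10. Of its 3030 exonic bases, 235 are shared with exons of S100A13 on the opposite strand. Reads within the shared bases cannot be told apart if strand was not used. The call was lost without BMH-21 replicate 2 or 3 and without control replicate 2 or 3, at 0.69, 0.52, 0.65 and 0.54, and with no filter on low values. S100A5, known from olfactory neurons, had 2.47, 2.26 and 2.56 TPM after BMH-21, against 1.27, 1.97 and 1.70 TPM in controls. Its groups did not overlap, and it did not pass the test (adjusted p = 0.091). S100A7 was listed at 0 in all libraries, S100B reached 0.153 TPM after BMH-21 and 0.0724 TPM in controls, and S100Z reached 0.0723 TPM after BMH-21 and was listed at 0 in controls. The remaining 6, which include S100A8 and S100A9, were not analysed here. Of 7 fused-type genes, whose long proteins begin with an S100 domain, 6 were in the table and none passed the level filter. HRNR, which encodes hornerin of the skin barrier, was the highest of them, at 0.151 ± 0.0755 TPM after BMH-21 and 0.00886 ± 0.00440 TPM in controls (SD, n = 3 each).

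Annexins bind membrane phospholipids in the presence of calcium and are the best known partners of S100A10, S100A11 and S100A6. They went both ways. Of 12 annexin genes, 10 passed the level filter, of which 4 were called higher, 3 lower and 3 did not pass, with a median log2 fold change of 0.35. In all, 70% were called, beside 36.4% of all genes. ANXA2, the partner of S100A10, rose to 1704, 1653 and 1697 TPM after BMH-21, against 836, 975 and 966 TPM in controls (log2 fold change 0.87, SE 0.09, limma adjusted p = 0.00011). ANXA1, the partner of S100A11, rose to 179, 169 and 151 TPM after BMH-21, against 46.7, 88.6 and 85.0 TPM in controls (log2 fold change 1.22, SE 0.22, adjusted p = 0.0027 by limma). Control replicate 1 was the low library, and without it the log2 fold change was 0.93. ANXA3 and ANXA4 rose by 1.68 and 1.08 on the log2 scale, while ANXA6 fell by 1.23. ANXA11, a partner of S100A6, averaged 122 ± 4.95 TPM after BMH-21 and 106 ± 4.19 TPM in controls and missed the threshold (limma adjusted p = 0.056). Leaving out BMH-21 replicate 3 brought it past, at 0.21 (limma adjusted p = 0.035), and over all alternatives its adjusted p ran from 0.011 to 0.37.

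The ratio of S100A10 to ANXA2 in TPM was 0.256, 0.263 and 0.309 in the BMH-21 libraries, against 0.507, 0.343 and 0.363 in the control libraries. It was lower in every treated library, with control replicate 1 well above the others. The ratio of S100A11 to ANXA1 was 3.90, 4.22 and 4.73 after BMH-21, against 8.14, 3.84 and 4.12 in controls, and here the groups overlapped.

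Of 22 other proteins that S100 proteins are known to bind, 21 had transcripts that passed the level filter, of which 4 were called higher, 5 lower and 12 did not pass. Their median log2 fold change was -0.13, and 42.9% were called, beside 36.4% of all genes. EZR encodes ezrin, a linker of actin to the membrane and a partner of S100P. It rose to 1148, 1144 and 1481 TPM after BMH-21, against 561, 689 and 682 TPM in controls (log2 fold change 0.96, SE 0.13, limma adjusted p = 0.00054). CACYBP, named for its binding of S100A6, went the other way from S100A6. It fell to 59.8, 61.0 and 73.5 TPM after BMH-21, against 89.7, 116 and 119 TPM in controls (log2 fold change -0.73, SE 0.13, adjusted p = 0.0026 by limma). SUGT1 and CAPZA1, a co-chaperone and an actin capping subunit, rose by 0.84 and 0.79 on the log2 scale. AGER encodes RAGE, a cell surface receptor of several S100 proteins, and is named after its values were seen. It averaged 1.01 ± 0.405 TPM after BMH-21 and 2.26 ± 0.278 TPM in controls, with a log2 fold change of -0.71, or -1.15 with a pseudocount of 0.1, and its call was lost without BMH-21 replicate 2, at -0.57. MYH9, the myosin partner of S100A4, averaged 88.4 ± 19.9 TPM after BMH-21 and 95.03 ± 1.70 TPM in controls. AHNAK, a scaffold bound by S100A10 with ANXA2, averaged 24.6 ± 5.64 TPM after BMH-21 and 18.8 ± 2.97 TPM in controls. Neither passed the test, at log2 fold changes of -0.13 and 0.36. Leaving out BMH-21 replicate 3 brought MYH9 past the threshold, at -0.30 (limma adjusted p = 0.0079, and 0.0031 to 0.96 over all alternatives). In that setting 4 of the 21 genes were called higher and 10 lower. Over all genes, 4380 were called with all libraries, and 3173 to 5119 with any 1 left out.

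**Figure D5:**
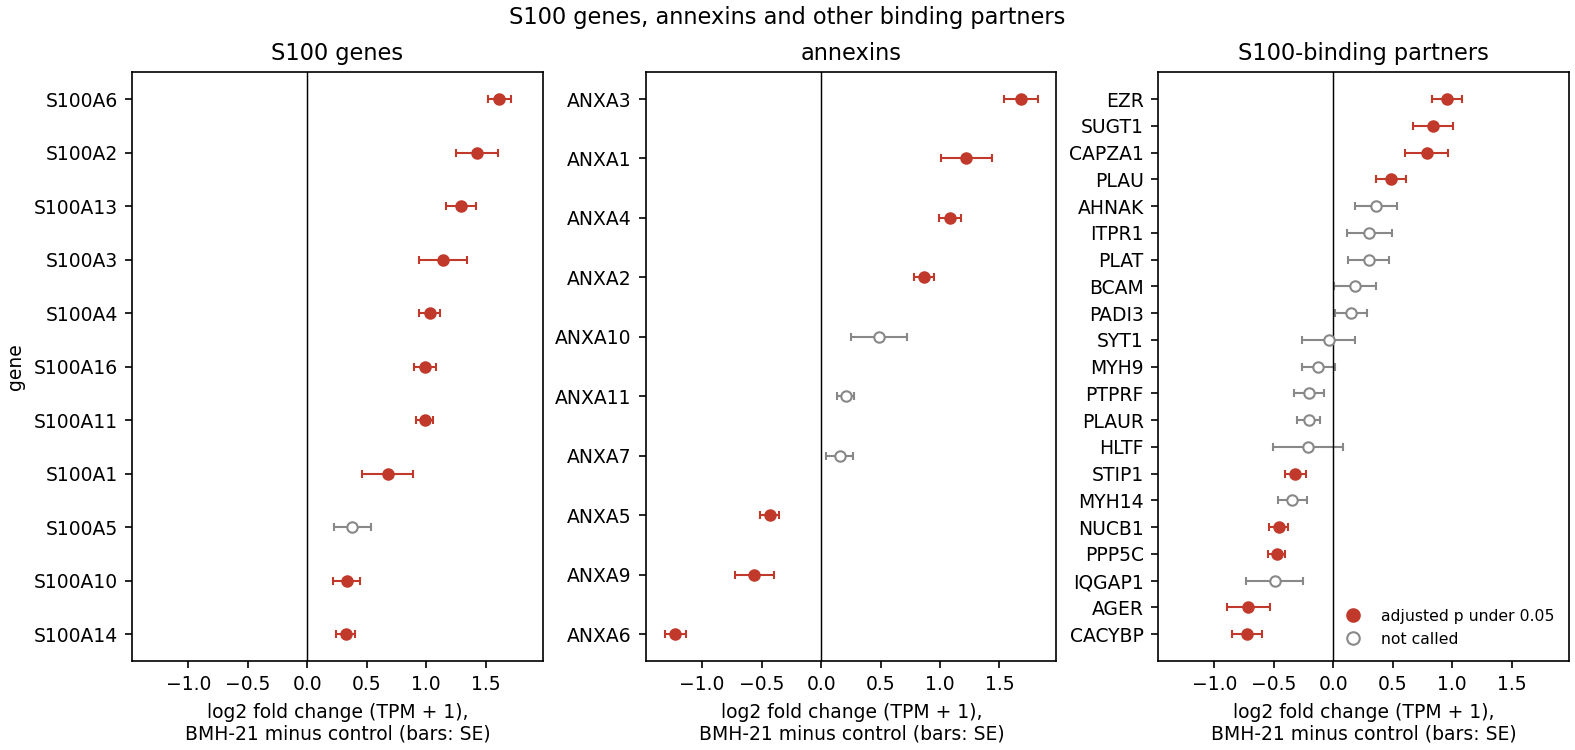
Log2 fold change of log2(TPM + 1), BMH-21 minus control, with SE bars, for the 11 S100 genes, 10 annexins and 21 other binding partners that passed the level filter. Filled points have an adjusted p under 0.05; S100 genes run from 0.32 to 1.61, while annexins run from -1.23 to 1.68 and other partners from -0.73 to 0.96.

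Calcium sensors outside the S100 family did not share one direction. Of 40 other EF-hand genes, 35 passed the level filter, of which 12 were called higher, 5 lower and 18 did not pass. Their median was 0.05 on the log2 scale. The share called was 48.6%, beside 36.4% of all genes. CALM3, one of the calmodulin genes, fell to 270 ± 7.52 TPM after BMH-21, against 610 ± 32.2 TPM in controls (SD, n = 3 each; log2 fold change -1.17, SE 0.07, limma adjusted p = 5.7e-06). CALM2, another calmodulin gene, named after its values were seen, fell by 0.59 on the log2 scale. It missed the threshold without control replicate 2 or 3, at -0.51 and -0.50, and with no filter on low values. CAPN2, the catalytic subunit of a calcium-dependent protease, rose to 138 ± 25.2 TPM after BMH-21, against 62.1 ± 11.02 TPM in controls. EHD1, which recycles endocytic membrane, and HPCAL1, a neuronal calcium sensor type protein, rose by 1.08 and 0.93. With BMH-21 replicate 3 and control replicate 1 left out, 14 of the 35 genes were called higher and 13 lower. Calls over all genes also rose in that setting, as given in the last section, so nothing particular to these genes is read from it.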

How the data were processed

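Polyadenylated or ribosome-depleted RNA from HCT116 cells was sequenced: the labels name both, so the enrichment step is uncertain. The authors deposited TPM values per gene and library. The submitters' processing notes name STAR, Salmon and GRCh38. Tool versions, annotation, strand setting and filters were not given in the sources used here. TPM holds no depth, so no counting interval is given.

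Groups came from the sample titles. limma 3.58.1 in R 4.3.3 was fitted to log2(TPM + 1) with an intensity trend and no covariate, over 12041 genes with at least 1 TPM in at least 3 of 6 libraries. Tests were two-sided with Benjamini-Hochberg adjustment over all these genes, and the threshold was 0.05. Fold changes on this scale understate the change of low genes. Annotation was GENCODE 29, and start windows were from RefSeq.

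The S100 genes and all gene lists were chosen with earlier results of these data known. All members and other S100 genes in the table were named. So were up to 4 called genes with the largest change in each other list, 7 fixed partner genes, and the 3 genes most like the most abundant member. Exceptions are marked, and a gene that this rule names is not reported here. Alternatives covered pseudocount, filter, scaling, mitochondrial genes left out, variance trend, a replicate block and libraries left out. The fits without a library kept the 12041 genes.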

Additional observations from a re-analysis of the deposited data

How the results depend on the processing

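Over all genes, 4380 were called. Without BMH-21 replicate 3 and control replicate 1, a setting added once these had been seen to stand apart, 7061 were called, 2917 higher and 4144 lower, and the median over all genes was -0.07 on the log2 scale. In that setting 15 binding partners, 27 other EF-hand genes and 13 neighbours were called. The cause was not tested. With any 1 library left out, the calls were 3173 to 5119 for all genes, 7 to 9 for the S100 members, with a median log2 fold change of 1.00 to 1.10, 6 to 8 for annexins, 7 to 14 for binding partners, 13 to 23 for other EF-hand genes, 4 to 7 for neighbours and 0 to 1 for other S100 genes. Other S100 genes gave 0 calls with no filter on low values, 0 with a filter at 5 TPM, where none was tested, and 2 with quantile normalization. No filter gave 1 fused-type gene called. Correlations of deviations over genes were 0.04, -0.14 and 0.02 for same-numbered libraries of the groups, and -0.10 to 0.12 for differently numbered ones. With so few libraries these values cannot tell whether a shared number marks a shared batch. A replicate block gave 4608 calls and left all 9 S100 calls in place. A trimmed mean or median of ratios scaling left 7 S100 members called, without S100A10 and S100A14. The unknown depth limits low genes such as S100P and S100A1.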
